A study of Triticum turgidum with 12 samples.

Results

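ACC oxidase, also called ethylene-forming enzyme (EFE), was followed through 2 probe sets of the Affymetrix Wheat Genome Array, TaAffx.100446.1.S1_at and Ta.9107.2.S1_a_at, out of 61290 on the array. Both carry the name EFE (1-aminocyclopropane-1-carboxylate oxidase) in the study's list of genes that changed under water stress in both genotypes. The members were therefore chosen by their water stress against control values on these same arrays, and that change is given as a description with no test. That list also favoured genes with a like change in both genotypes, on the same stressed arrays, so the genotype differences under water stress, and those averaged over treatments, are given with their intervals and no test. A small difference there is not evidence that the genotypes are alike. Only the genotype difference under control watering is tested. Neither member has a gene entry in the probe annotation used here, so the name EFE is the study's own.

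The 12 arrays were hybridised with RNA from durum wheat flag leaves collected at anthesis, each array holding a pool of leaves from 5 plants. The 4 groups of 3 arrays were the pale-green mutant MD-597 under water stress, its wild-type parent variety Borgia under water stress, the mutant under control watering and the wild-type under control watering. The mutant descends from a sodium azide treatment of Borgia followed by backcrossing, is a single line, and may still carry other induced changes. Water stress began at Zadoks stage 45 and the control plants were kept well watered. Nothing in the labels ties a replicate number to a plot, so p-values measure the spread between these pools. In a whole-leaf extract, fewer cells that express a gene and less RNA per cell cannot be told apart.

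Plants make the gas hormone ethylene from methionine. Methionine is first activated to S-adenosylmethionine, ACC synthase (ACS) turns this into 1-aminocyclopropane-1-carboxylate (ACC), and ACC oxidase, an enzyme that needs iron and ascorbate, converts ACC into ethylene. ACC synthase is often the limiting step, while ACC oxidase can limit ethylene output where ACC is plentiful. The signal is passed from membrane receptors to ethylene response factors (ERF), transcription factors with the AP2 DNA-binding domain, and ethylene is known for its part in leaf senescence, leaf growth and responses to drought and flooding.

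Of 9 probe sets for leaf photosynthesis genes (RUBISCO subunits, LHB1B2 and ATPD), 7 lay above the 80th percentile of every array. The exceptions were Ta.23025.1.A1_at for LHB1B2, at or above the 53.0 percentile, and the RUBISCO large subunit, a chloroplast-encoded gene, at or above the 33.0 percentile. Values are MAS5 intensities that the authors scaled to a common array mean. The tests ran on the 24590 probe sets that were brighter than 60% of their array on each of the 3 arrays of 1 group or more. Both ACC oxidase members passed that limit on all 12 arrays, so neither passed the filter through the stressed groups alone. Mutant water stress replicate 3 stood apart from its group, with 238 kept probe sets over 4-fold lower than the mean of the other replicates, against 36 to 112 on the other arrays. Each member's stress result is therefore given with and without that array.

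TaAffx.100446.1.S1_at was high under water stress on every array but that replicate. Its intensity was 2329, 2040.4 and 255 on mutant water stress replicates 1, 2 and 3, against 1432, 1484 and 2089 on the wild-type water stress arrays. Under control watering it read 141, 204 and 159 in the mutant, against 196, 168 and 177 in the wild-type. Replicates 1 and 2 of the stressed mutant were thus among the highest 3 of all 12 arrays, whereas replicate 3 lay only just above the control arrays. On the log2 scale the group means were 10.06 ± 1.79 in the stressed mutant, against 10.68 ± 0.30 in the stressed wild-type, and 7.37 ± 0.27 in the mutant, against 7.49 ± 0.11 in the wild-type under control (SD, n = 3 each). The lowest stressed array exceeded the highest control array by 0.32 log2 units in the mutant, and by 2.87 in the wild-type.

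Ta.9107.2.S1_a_at showed the same division between treatments with less scatter. Its intensity was 10612, 11807 and 7295 on the mutant water stress arrays, against 9755, 14547 and 11907 on the wild-type water stress arrays. The control arrays read 1520.5, 2093 and 1450.4 in the mutant, against 1951, 1778 and 1638 in the wild-type. No stressed array came near a control array, the gap between the groups being 1.80 log2 units in the mutant, against 2.32 in the wild-type. Group means on the log2 scale were 13.24 ± 0.36 in the stressed mutant, against 13.54 ± 0.29 in the stressed wild-type, and 10.70 ± 0.29 in the mutant, against 10.80 ± 0.13 in the wild-type under control (SD, n = 3 each). For both probe sets the group means over all arrays ran in the same order, wild-type stressed highest, then mutant stressed, wild-type control and mutant control, and the genotypes of a treatment overlapped.

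**Figure D1:**
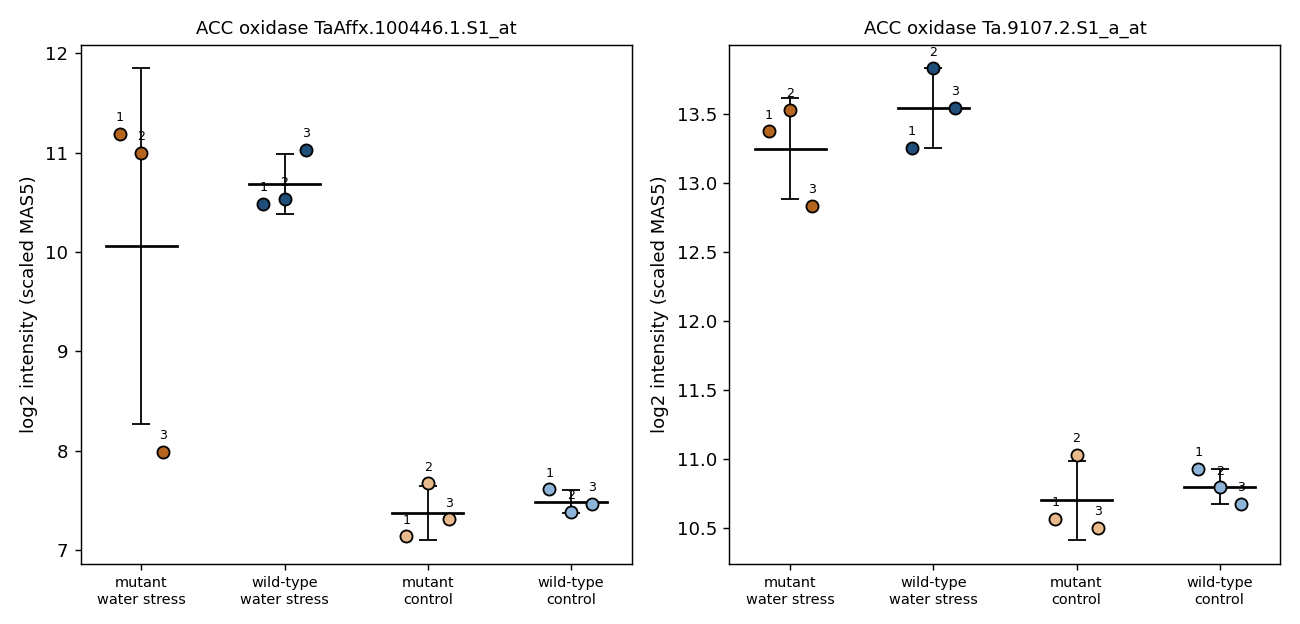
log2 intensity of both ACC oxidase probe sets on each of the 12 arrays (numbers are replicates), by group, with the group mean (horizontal line) and SD (bars, n = 3 each). Every stressed array lies above every control array of its genotype, but for TaAffx.100446.1.S1_at mutant water stress replicate 3 (255) is only 0.32 log2 units above the highest mutant control array.

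The signal of both ACC oxidase probe sets was several-fold higher under water stress than under control in each genotype. TaAffx.100446.1.S1_at differed by 2.68 ± 0.60 log2 units (SE from the limma fit), or 6.42-fold, in the mutant, and by 3.19 ± 0.60, or 9.14-fold, in the wild-type. Ta.9107.2.S1_a_at differed by 2.54 ± 0.19, or 5.83-fold, in the mutant, and by 2.74 ± 0.19, or 6.67-fold, in the wild-type. These values stand near the top of the array, with ranks of 92 and 106 from the highest in the mutant, against 70 and 102 in the wild-type among 24590 kept probe sets, whose median difference was 0.04 in the mutant, against 0.01 in the wild-type.

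A call here is an adjusted p under 0.05 and at least a 2-fold change, and the calls for higher values under water stress made up 3.42% of kept probe sets in the mutant, against 3.07% in the wild-type. The choice of the members on this contrast fixed that they are among them, so nothing is read from it. All stressed arrays exceeded all control arrays for both members, as they did for 23.6% of kept probe sets in the mutant, against 21.9% in the wild-type.

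Array by array, the change of TaAffx.100446.1.S1_at from the control mean of its genotype was 14.0-fold, 12.3-fold and 1.53-fold in the mutant, against 7.97-fold, 8.25-fold and 11.6-fold in the wild-type. For Ta.9107.2.S1_a_at it was 6.37-fold, 7.09-fold and 4.38-fold in the mutant, against 5.47-fold, 8.15-fold and 6.67-fold in the wild-type. Without mutant water stress replicate 3 the mutant's change became 3.72 ± 0.20 log2 units, or 13.1-fold, for TaAffx.100446.1.S1_at and 2.75 ± 0.18, or 6.72-fold, for Ta.9107.2.S1_a_at. The order of the genotypes then turned for the first probe set, the mutant's change being larger than the wild-type's 9.14-fold, while for the second the genotypes differed by 0.01 log2 units.

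The difference between the genotypes' responses (mutant minus wild-type) was -0.51 for TaAffx.100446.1.S1_at, with a 95% interval of -2.36 to 1.34, and 0.52 (-0.06 to 1.10) without replicate 3. For Ta.9107.2.S1_a_at it was -0.20 (-0.79 to 0.40) with all arrays and 0.01 (-0.50 to 0.52) without that replicate. Both intervals include 0 in either case, and those of the first probe set leave room for a difference of more than 2-fold.

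On mutant water stress replicate 3 the probe sets of the ethylene list moved towards their control levels to very different extents. TaAffx.100446.1.S1_at was 3.10 log2 units, or 8.56-fold, below the mean of replicates 1 and 2, the 54th lowest deviation of 24590 kept probe sets. Ta.9107.2.S1_a_at was 0.62 units, or 1.53-fold, below, with 13.7% of kept probe sets deviating further down. Among 124 probe sets called higher in the wild-type by at least 2.5 log2 units, 6 fell over 4-fold short on this array and the median deviation was -0.66. The smaller change on this array was shared by all 6 probe sets that the study lists under ethylene, each of which changed least on replicate 3 among the 3 stressed mutant arrays. Of the 1787 probe sets called in the wild-type, 54.7% did so. Wild-type water stress replicate 1 was the nearest to this, with the least change among the stressed wild-type arrays for 1095 of the 2191 probe sets called in the mutant and for 4 of the 6 ethylene probe sets.

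The ratio of the 3' to the 5' probe set of glucose-6-phosphate dehydrogenase, a control transcript for RNA integrity, was 15.2 on mutant water stress replicate 3, against 4.46 and 5.23 on the other stressed mutant arrays. It was 15.7 on wild-type water stress replicate 2, where TaAffx.100446.1.S1_at read 1484. For sucrose synthase the ratio was 50.6 on mutant water stress replicate 3, against 67.8 and 202 on the other stressed mutant arrays, and for the spiked dap transcript it was 3.16, against 2.66 and 3.45. The same ratio for ubiquitin, another control, was 0.37 on mutant water stress replicate 3, within the 0.32 to 0.53 of all arrays. The part of RNA quality in the low value was not tested.

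**Figure D2:**
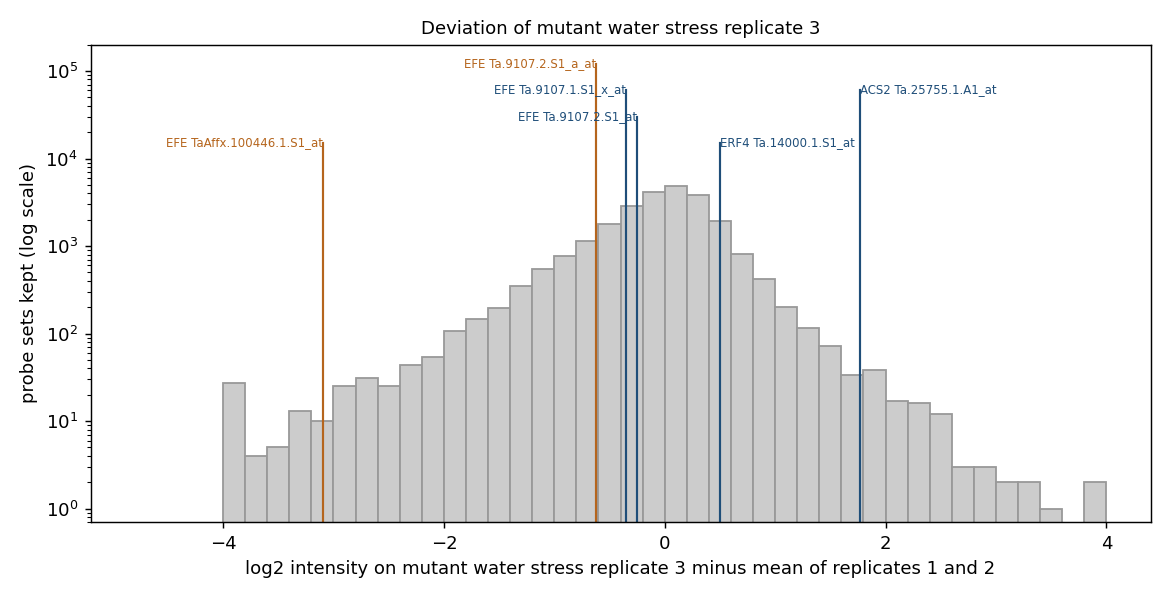
Number of kept probe sets (log axis) by their log2 deviation on mutant water stress replicate 3 from the mean of replicates 1 and 2 (values beyond 4 units are pooled in the end bins), with the ACC oxidase members in orange and the other ethylene probe sets in blue. TaAffx.100446.1.S1_at lies at -3.10, far in the lower tail, and Ta.9107.2.S1_a_at at -0.62.

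Between the genotypes both ACC oxidase probe sets were slightly lower in the mutant over all arrays, with intervals that include 0. Under water stress the mutant minus the wild-type was -0.63 ± 0.60 log2 units for TaAffx.100446.1.S1_at (95% interval -1.93 to 0.68) and -0.30 ± 0.19 for Ta.9107.2.S1_a_at (-0.71 to 0.12). In this contrast 0.708% of kept probe sets were called, and neither of the 2 members, from which nothing is read. Without replicate 3 the first value turned to 0.41 ± 0.20 (-0.02 to 0.84) and the second was -0.09 ± 0.18 (-0.47 to 0.29). The remaining 2 stressed mutant arrays of TaAffx.100446.1.S1_at still overlapped the wild-type, replicate 2 (2040.4) lying below the highest wild-type array (2089).

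Under control watering the difference was -0.12 ± 0.60 (-1.42 to 1.19) for TaAffx.100446.1.S1_at and -0.10 ± 0.19 (-0.52 to 0.32) for Ta.9107.2.S1_a_at, both with a limma Benjamini-Hochberg adjusted p of 1.00. Here 0 of the 2 members and 0.00% of kept probe sets were called by limma, although 222 probe sets passed an unadjusted limma p under 0.05 with a 2-fold change. The methods' t-test, run here on MAS5 intensities with the brightness filter, also called 0. The study used RMA values filtered by detection calls, and reports both induced and repressed probe sets in this contrast. Averaged over both treatments the members' differences were -0.37 ± 0.43 and -0.20 ± 0.14, in a contrast where 0.122% of kept probe sets were called and neither member was among them. The wide intervals of TaAffx.100446.1.S1_at reflect the spread of the stressed mutant, since all groups share the estimate of error, and with replicate 3 left out the control interval narrowed to -0.50 to 0.27. For Ta.9107.2.S1_a_at the control interval did not reach a 2-fold difference in either direction.

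**Figure D3:**
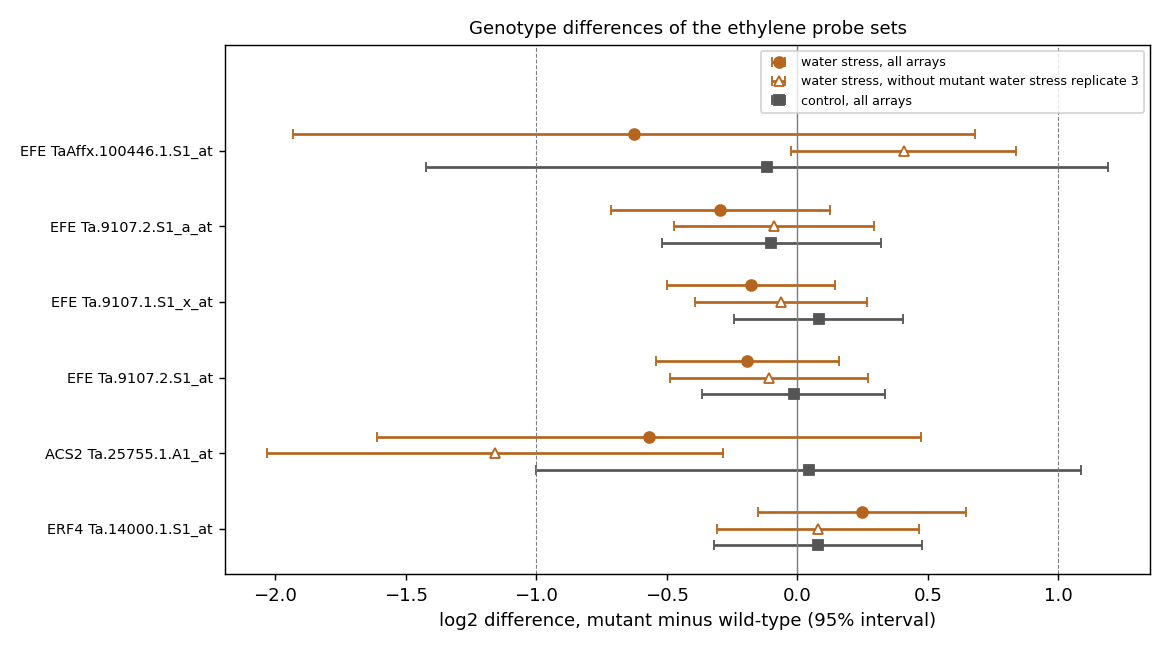
Mutant minus wild-type difference in log2 intensity with its 95% interval for the 6 ethylene probe sets, under water stress with all arrays (filled circles), under water stress without mutant water stress replicate 3 (open triangles) and under control (squares). Dashed lines mark a 2-fold difference, and the intervals of both ACC oxidase members include 0 in every case.

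The study lists 4 probe sets as EFE, and the other 2, Ta.9107.1.S1_x_at and Ta.9107.2.S1_at, share the cluster number of Ta.9107.2.S1_a_at. Sets with this number can carry probes to the same transcripts, and the ending _x_at marks probes that also match other sequences, so the 3 are not independent measurements of separate genes. Ta.9107.2.S1_at had intensities of 6222, 5678 and 4990.3 in the stressed mutant, against 5499.9, 7938 and 6029 in the stressed wild-type, and 1202 to 1827 on the control arrays. Ta.9107.1.S1_x_at ranged over 8877 to 11296 in the stressed mutant and 9656 to 14537 in the stressed wild-type, with 2469 to 3234 on the control arrays. All stressed arrays again lay above all control arrays, as they did for 23.6% of kept probe sets in the mutant, against 21.9% in the wild-type.

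Their water stress differences were smaller than those of the members, at 1.96 ± 0.16 in the mutant, against 2.14 ± 0.16 in the wild-type for Ta.9107.2.S1_at and 1.87 ± 0.15 in the mutant, against 2.13 ± 0.15 in the wild-type for Ta.9107.1.S1_x_at. On mutant water stress replicate 3 they were only 0.25 and 0.35 log2 units below the other replicates, against the 3.10 of TaAffx.100446.1.S1_at. The genotype difference under water stress was -0.19 ± 0.16 for Ta.9107.2.S1_at and -0.18 ± 0.15 for Ta.9107.1.S1_x_at. The 3 sets of this cluster that the study names EFE were highest on wild-type water stress replicate 2. TaAffx.100446.1.S1_at was highest in that group on replicate 3.

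A further probe set of the cluster, Ta.9107.3.A1_at, has no name in the study and was added after its values were seen. It was dim, with 210.2, 268 and 191 in the stressed mutant, against 274, 208 and 207 in the stressed wild-type. Unlike the EFE sets of the cluster, it was highest on wild-type water stress replicate 1. Its control arrays read 67.7 to 118 in the mutant, against 57.2 to 76.5 in the wild-type. It read higher under water stress by 2.49-fold in the mutant, against 3.36-fold in the wild-type. All its stressed arrays lay above the 60th percentile, against 1 mutant control array and 0 wild-type control arrays. It thus passed the brightness filter only through the stressed groups, so nothing is read from its direction.

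Across the arrays the members correlated with r = 0.93, and with r = 0.99 once mutant water stress replicate 3 was left out (n = 12 and 11 arrays, as a description, since the treatments set both ends). Among the 6 control arrays r was 0.88, with mutant control replicate 2 the highest for both. Among the 6 stressed arrays r was 0.77, and without that replicate (n = 5) it was -0.16.

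The probe set that the study lists for ACC synthase, the enzyme before ACC oxidase, had a lower RNA signal under water stress. It speaks for that probe set only, not for the activity of the step. ACS2, an ACC synthase (Ta.25755.1.A1_at), read 21.8, 73.9 and 137 in the stressed mutant, against 78.8, 87.5 and 104 in the stressed wild-type. The control arrays read 296, 277 and 330 in the mutant, against 259, 320.2 and 298 in the wild-type. The stressed mutant spread over a wider range than any other group. The difference between the treatments was -2.31 ± 0.48 log2 units in the mutant, against -1.70 ± 0.48 in the wild-type, and 4 of the 6 stressed arrays lay below the 60th percentile of their array. Without mutant water stress replicate 3 the mutant's difference was -2.90 ± 0.40, a 7.48-fold change against 4.97-fold with all arrays. Between the genotypes under water stress the difference was -0.57 ± 0.48, and -1.16 ± 0.40 without that replicate. The values without it rest on mutant water stress replicates 1 and 2, and replicate 1 (21.8) lay at the 29.1 percentile of its array.

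ERF4, an ethylene response factor that represses transcription in Arabidopsis (Ta.14000.1.S1_at), was also lower under water stress. It read 349, 300.5 and 458 in the stressed mutant, against 287, 392 and 256 in the stressed wild-type. The control arrays ranged over 702 to 752 in the mutant, against 635 to 731 in the wild-type. The difference was -1.01 ± 0.18 in the mutant, against -1.18 ± 0.18 in the wild-type, and between the genotypes under water stress it was 0.25 ± 0.18. Of the 6 ethylene probe sets, 4 (all EFE) were called higher and 2 (ACS2 and ERF4) lower in each genotype, where 5.49% of kept probe sets were called lower in the mutant, against 4.19% in the wild-type. The study chose this list on the same contrast, so these counts are not independent evidence of direction.

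**Figure D4:**
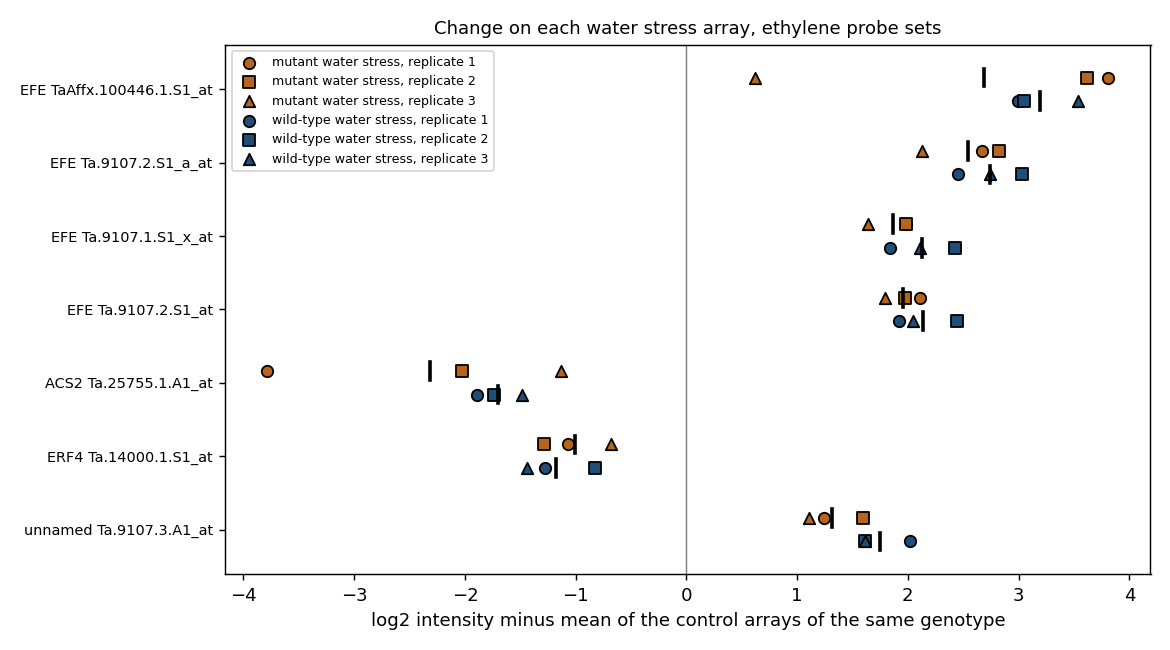
log2 intensity on each water stress array minus the mean of the control arrays of the same genotype, for the 6 ethylene probe sets and Ta.9107.3.A1_at (mutant in orange above wild-type in blue, symbols mark replicates, bars the group mean). The EFE sets lie to the right of 0 and ACS2 and ERF4 to the left on every array, and mutant water stress replicate 3 (orange triangle) is the closest to 0 of the mutant arrays in each of the 6 named sets.

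S-adenosylhomocysteine hydrolase (SAHH), which acts in the methyl cycle that returns methionine, is the nearest gene to ethylene synthesis that the array annotation names. It was added after the first results and was not chosen by any contrast. Its probe sets Ta.1258.1.S1_a_at and Ta.1258.2.S1_x_at showed no difference between treatments that passed, with 0.05 ± 0.11 and 0.08 ± 0.07 in the mutant (limma adjusted p = 0.742 and 0.388) and -0.01 ± 0.11 and -0.03 ± 0.07 in the wild-type (limma adjusted p = 0.942 and 0.827). Ta.1258.2.S1_x_at read 23865, 23393 and 22805 in the stressed mutant, against 17527, 18837 and 18874 in the stressed wild-type, a difference of 0.34 ± 0.07 (1.27-fold, limma adjusted p = 0.021) that fell short of the 2-fold limit of a call. Under control Ta.1258.2.S1_x_at differed in the same direction, by 0.23 ± 0.07 (limma adjusted p = 0.495). Averaged over both treatments it differed by 0.29 ± 0.05 (limma adjusted p = 0.025). Its response to water stress differed between the genotypes by 0.11 ± 0.10 (limma adjusted p = 0.726). Ta.1258.1.S1_a_at differed by 0.29 ± 0.11 under water stress (limma adjusted p = 0.184) and by 0.22 ± 0.11 under control (limma adjusted p = 0.979). Its difference averaged over both treatments was 0.26 ± 0.08 (limma adjusted p = 0.173). The passing values thus rest on the _x_at set, whose probes also match other sequences.

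The 5 probe sets that the study names as AP2-domain regulators or MAPK3, a MAP kinase that phosphorylates ACC synthase in Arabidopsis, come from its list of genes that differed by genotype, so their values are given without tests. RAP2.12 (Ta.10130.1.S1_at), a group VII ethylene response factor tied to low-oxygen responses in Arabidopsis, read 3621, 3983 and 3266 in the stressed mutant, against 9376, 8714 and 10342 in the stressed wild-type. Its treatment difference was -0.11 ± 0.10 in the mutant, against 1.06 ± 0.10 in the wild-type. The lists were chosen on such values, so no contrast with ACC oxidase is drawn. RAP2.7 (Ta.13336.1.S1_at) differed between treatments by 0.40 ± 0.25 in the mutant, and by 1.83 ± 0.25 in the wild-type.

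The RAP2.8 probe sets differed from each other. Ta.27316.1.S1_at differed between treatments by -1.01 ± 0.17 in the mutant, against -1.01 ± 0.17 in the wild-type, but Ta.21035.1.S1_at by -1.70 ± 0.35 in the mutant, against -0.17 ± 0.35 in the wild-type. MAPK3 (Ta.236.1.S1_at) differed by -1.45 ± 0.22 in the mutant, and by -0.75 ± 0.22 in the wild-type. The actin reference (Ta.28253.1.S1_at) differed between treatments by 0.17 ± 0.10 in the mutant, against 0.00 ± 0.10 in the wild-type.

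The probe sets whose pattern was most like that of ACC oxidase were taken by Pearson's r over the 12 arrays with the mean of both members, among 203 other probe sets named by the study. The closest was RAB18 Ta.29352.1.S1_x_at (r = 0.99), a dehydrin induced by abscisic acid, which was also the closest of all kept probe sets other than the members. It was followed by SUS3 Ta.11152.3.S1_at (r = 0.98), a sucrose synthase, and P5CR Ta.591.1.S1_at (r = 0.97), the last enzyme of proline synthesis from glutamate. The rest of the closest 10 were a second SUS3 set, a second RAB18 set, CIPK3 (a calcium-signalling kinase), P5CS2 (the first enzyme of proline synthesis), BCKDHE1α (branched-chain amino acid breakdown) and the other EFE sets, at r of 0.96 to 0.97.

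The arrays share the treatment, so any probe set with a strong treatment difference scores high, and 465 kept probe sets other than the members had r above 0.90. All of the closest 10 were lower on mutant water stress replicate 3 than the mean of the other replicates, where the median of kept probe sets was 0.0016. They were chosen by r over arrays that include this one, on which the members are low, so nothing is read from that. The deviation was -1.80 and -1.55 log2 units for the RAB18 sets and -1.47 for SUS3 Ta.11152.3.S1_at. It was -1.21 for CIPK3, -1.19 for P5CS2 and -0.25 to -0.63 for the rest. Without that array 6 of the closest 10 were the same, and AGAL2 (alpha-galactosidase), limit dextrinase, AK3 (aspartokinase, of the amino acid pathway that leads to methionine) and SUS4 took the other places. On mutant water stress replicate 3 the deviation was 0.15 for AGAL2, -0.04 for limit dextrinase, -0.12 for AK3 and -0.56 for SUS4. Outside the study's names, Ta.5676.2.S1_a_at (r = 0.99) and Ta.3839.2.S1_x_at (r = 0.98) were the closest, with treatment differences of only 0.67 and 0.64 in the mutant, against 0.78 and 0.66 in the wild-type.

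The most opposed named sets were PDC2 Ta.19423.1.S1_a_at (pyruvate decarboxylase, r = -0.98), WRKY41 (r = -0.97), the protein phosphatase PP2C TaAffx.16090.1.S1_at (r = -0.97), ERF4 (r = -0.96) and the glutathione transferase ATGSTF13 Ta.303.2.S1_at (r = -0.95).

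**Figure D5:**
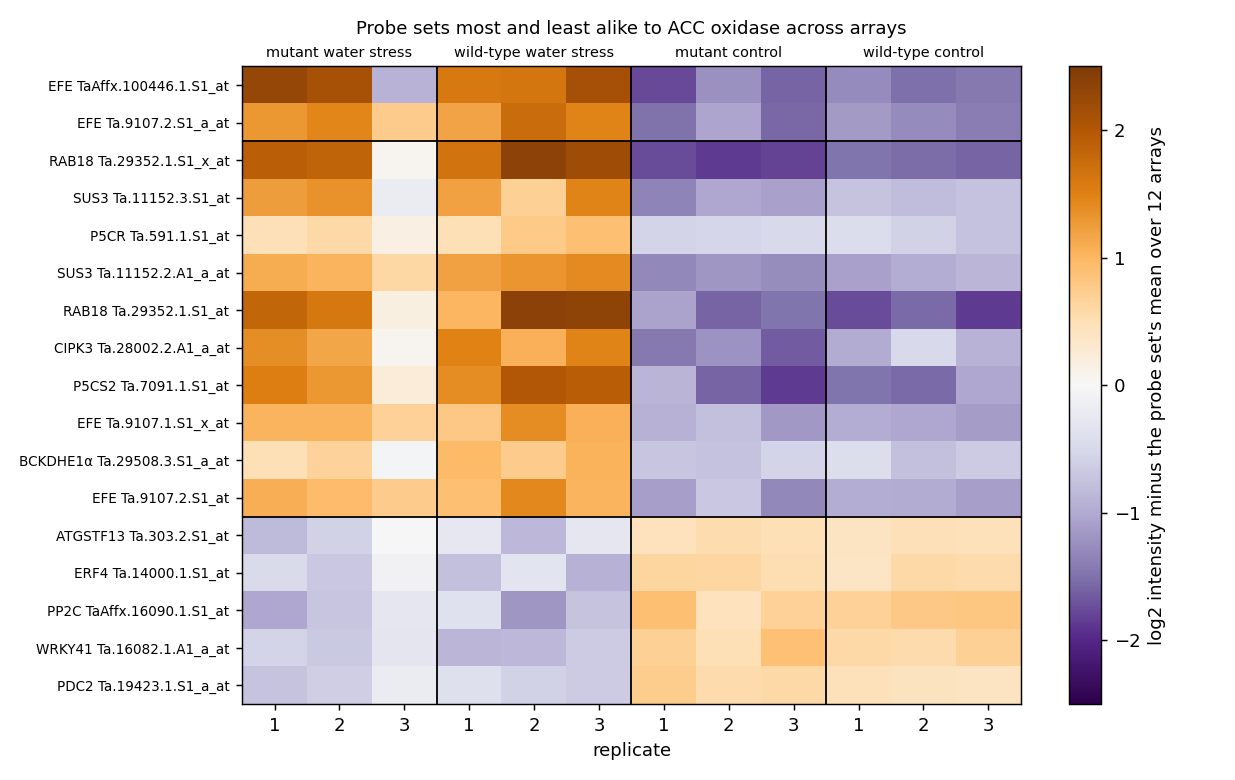
log2 intensity of each probe set minus its mean over the 12 arrays (colour), for both ACC oxidase members (top), the 10 named sets most like them and the 5 least like them, by group and replicate. The treatments part every row, and mutant water stress replicate 3 lies nearer the control arrays than the rest of its group in every row. For TaAffx.100446.1.S1_at (-0.91), SUS3 Ta.11152.3.S1_at (-0.18) and BCKDHE1α (-0.05) it falls below the row mean, on the side of the control arrays. The rows were chosen with this array included.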

How the data were processed

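The deposited values were linear intensities per probe set from Affymetrix MAS5 software, which the authors scaled so that each array had the same trimmed mean, with no detection calls in the table. The MAS5 version was not given in the sources used here. RNA was amplified from the 3' end. From these intensities log2 values were taken with no offset, control probe sets were removed, and 24590 of 61290 probe sets were kept, those brighter than 60% of the array on each of the 3 arrays of 1 group or more. limma 3.58.1 in R 4.3.3 fitted the 4 group means on all 12 arrays with an intensity trend, and p-values were adjusted by Benjamini-Hochberg over kept probe sets. A call needed an adjusted p under 0.05 and a 2-fold change. The fit was tested on simulated data.

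Gene names are the study's own, and of 1273 annotated probe sets 1254 carry only a locus number. The members and lists were chosen with earlier results of these data known. Named genes were both members, the study's other ethylene probe sets, its AP2 and MAPK3 sets, and the 10 named sets most like, the 5 least like and the 3 sets of any name most like the members by Pearson's r. Alternatives covered normalization, filter, offset, variance model, array weights, samples in the fit, the methods' t-test (run by the study on RMA values filtered by detection calls, and here on the MAS5 intensities with the brightness filter above), a replicate block and left-out arrays. The number of arrays limits the precision.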

Additional observations from a re-analysis of the deposited data

How the results depend on the processing

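For both ACC oxidase probe sets and 6 comparisons each, 183 of 194 recomputed values kept their direction and their side of the threshold, or, where nothing was tested, moved by less than the spread between replicates. Among the others, 7 were genotype differences that turned sign. For TaAffx.100446.1.S1_at under water stress the difference was 0.082 with array weights, 0.41 without mutant water stress replicate 3 and 0.33 without that array and wild-type water stress replicate 2, against -0.63 with all arrays. Averaged over both treatments it was 0.15 and 0.11 under the same omissions. Under control it was 0.0017 without mutant control replicate 1. For Ta.9107.2.S1_a_at under water stress it was 0.055 without both arrays. The difference between the responses, which was not tested, also changed sign. For TaAffx.100446.1.S1_at it was 0.52 without mutant water stress replicate 3, 0.45 without both arrays and 0.20 with array weights, against -0.51 with all arrays. For Ta.9107.2.S1_a_at it was 0.010, 0.15 and 0.11 under the same settings, against -0.20. The cause was not tested beyond these omissions.

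Leaving out each array in turn gave ranges for TaAffx.100446.1.S1_at of -1.19 to 0.41 between the genotypes under water stress, -0.27 to 0.0017 under control, -0.65 to 0.15 averaged over both, and -1.07 to 0.52 for the difference between the responses. In each range the highest value came without mutant water stress replicate 3, except under control. The treatment difference of this probe set ranged over 2.1 to 3.7 in the mutant, against 3.0 to 3.3 in the wild-type, and that of Ta.9107.2.S1_a_at over 2.40 to 2.75 in the mutant, against 2.59 to 2.88 in the wild-type.

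Over all kept probe sets the deviations of same-numbered arrays were little correlated (r of -0.19 to 0.089 over the pairs of groups). The study describes a split plot with 3 replicates, and whether the array numbers follow them is not given. With a replicate block the differences stayed at -0.63 and -0.30 under water stress, and calls between the genotypes averaged over treatments numbered 11 against 30. The block changed no call of a member, but the SE of Ta.9107.2.S1_a_at under water stress was 0.15 with it, against 0.19 without. Over all kept probe sets the methods' t-test called 0 genotype differences under water stress against 174 by limma (202 and 492 at an unadjusted p), and 77 treatment differences in the mutant, with 213 in the wild-type, against 2191 and 1787. The study ran its t-test on RMA values filtered by MAS5 detection calls, so these counts are not those of its own analysis. Leaving out mutant water stress replicate 3 gave 283 genotype calls under water stress. No measure of signal over background was used here, and 3 pools a group limit every interval.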
